A study of Mus musculus with 20 samples.

Results

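The 10 genes described here encode Notch receptors (Notch1, Notch2, Notch3 and Notch4), their ligands (Jag1, Jag2 and Dll1) and the Fringe enzymes (Lfng, Mfng and Rfng). They were taken by name from the 24391 genes counted in each sample. The list of names follows their roles in the pathway and was set with earlier results of these data known. A Notch receptor is a surface protein that is cut after it binds a Jagged or Delta-like ligand on a neighbouring cell. The cut frees the Notch intracellular domain (NICD), which enters the nucleus and joins the DNA-binding protein RBPJ to switch on target genes. Fringe enzymes extend the O-fucose sugars on the extracellular part of the receptor and so alter which ligands activate it. In the thymus Notch1 signalling directs progenitors to the T cell fate.

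RNA was sequenced from 20 samples of E2-10HA, a mouse T cell hybridoma, to follow gene expression when NICD is overexpressed or the histone variant H2A.Z is knocked out. CRISPR control samples carried empty lentiCRISPRv2 and H2A.Z guide samples carried lentiCRISPRv2-sgH2afv/H2afz, both under puromycin selection (n = 6 each). BioNICD samples carried BirA, a bacterial biotin ligase, and a tagged NICD with GFP, either wild type or a form labelled only as the DEP mutant, after histidinol and sorting (n = 2 each). NICD-ER samples carried a Flag-tagged NICD joined to the hormone-binding part of the estrogen receptor, with GFP. They were sorted and then kept for 24 hours in ethanol or in 4-hydroxytamoxifen (4-OHT), the ligand of that part (n = 2 each). All guide titles carry the same number, whose meaning the labels do not give, so the guide samples may be 1 line. The labels do not tell whether replicates came from separate cultures, and a p-value here reflects the spread among the samples at hand, part of which may be technical. The promoters driving the transgenes are not stated in the labels used here.

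Totals ran from 10704131 to 48238324 counts per sample. CRISPR replicates 1 and 2 of each group form submission set 1, because their labels carry a treatment field, and replicates 3 to 6 form set 2. In 6 of the 8 samples of set 2 the description field and the title disagree on the group, and the title was used. Levels are given as CPM, counts scaled to library size. The targeted genes stood apart by title in every sample: H2afz at 24.7 to 31.0 CPM in the control and 4.57 to 5.70 CPM with the guides, and H2afv at 116.5 to 149 CPM and 27.4 to 56.9 CPM. Rn45s, the ribosomal RNA precursor, held 6.73% to 7.67% of counts in control replicate 6 and guide replicates 5 and 6. CRISPR control replicate 1 and guide replicate 1 held 32.8 and 40.2 CPM over the 4 fibroblast markers (Col1a1, Col1a2, Col3a1 and Dcn), against at most 0.285 CPM in the other 18 samples. Lars2 stood at 90.6 CPM in ethanol replicate 1 and at 2177 to 2932 CPM in the remaining NICD-ER samples. The 8 T cell markers summed to 1094 to 2016 CPM, with Cd3e at 73.9 to 144 CPM, Lck at 42.2 to 407 CPM, Cd28 at 11.1 to 105 CPM and Cd2 at 6.63 to 64.3 CPM. Cd247 ran from 0 in 2 samples to 29.3 CPM, while the 4 B cell markers summed to at most 0.240 CPM and Epcam had 0 counts. Myeloid Itgam reached 62.8 CPM with wild-type BioNICD while Csf1r and Lyz2 stayed under 1.18 CPM, and endothelial Pecam1 stood at 18.7 to 97.9 CPM with Cdh5, Kdr and Tek near 0. Refits without the samples that stood apart in Rn45s, fibroblast reads or Lars2 are given beside the counts of calls. The part of the Itgam and Pecam1 levels in the results was not tested. In bulk RNA, fewer cells of a type and less RNA per cell cannot be told apart.

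Per kilobase of exon, Notch2 and Mfng were the most abundant of the 10 genes in the CRISPR control, at 16.6 ± 0.743 and 23.4 ± 1.58 CPM per kb. Notch2 held 97.1% ± 0.451 of the summed per-length level of the receptors there. Among the ligands Jag2 held 64.9% ± 9.65 and Jag1 35.1% ± 9.65. Among the Fringe genes Mfng held 66.9% ± 1.09, Lfng 19.5% ± 1.95 and Rfng 13.6% ± 2.28. So 1 gene dominated the receptors and 1 the Fringe genes of the control, and both ligands were low. Notch3 and Dll1 gave almost no reads and passed no filter, which left 8 of the 10 genes for testing.

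**Figure D1:**
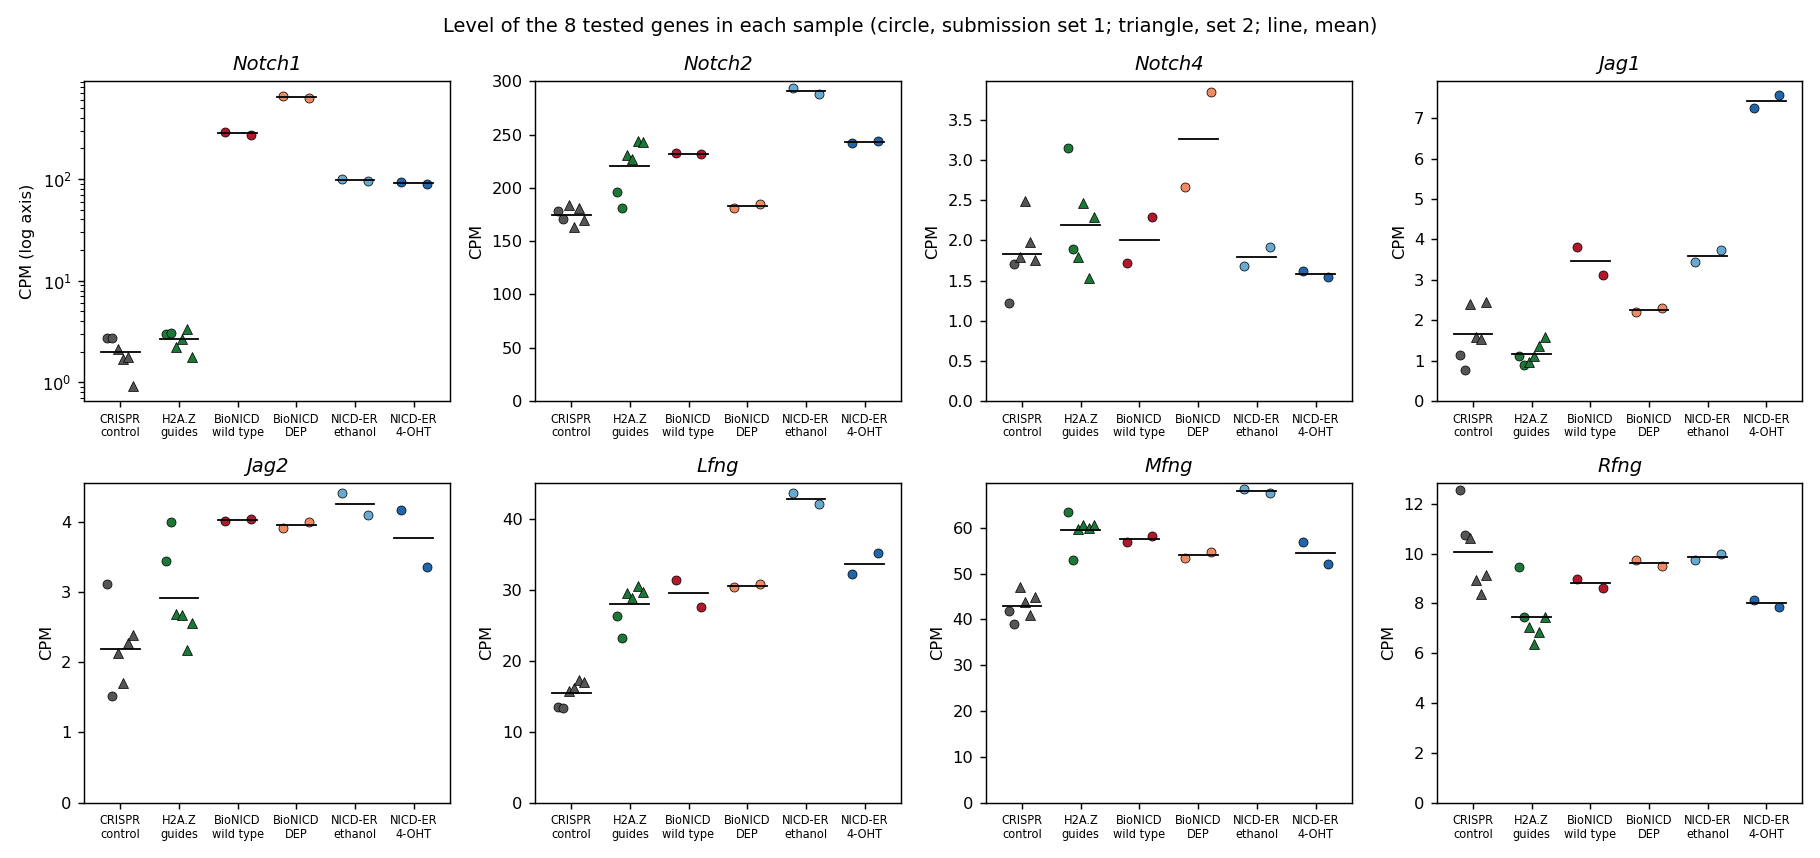
Level (CPM) of the 8 tested genes in each of the 20 samples, by group, with circles for submission set 1, triangles for set 2 and a line at the group mean; the Notch1 axis is logarithmic. Notch1 is high in the 4 NICD groups, where its reads may come from the NICD transgene. Lfng and Mfng are lowest in the 6 controls, and Jag1 is highest in the 2 samples with 4-OHT.

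**Figure D2:**
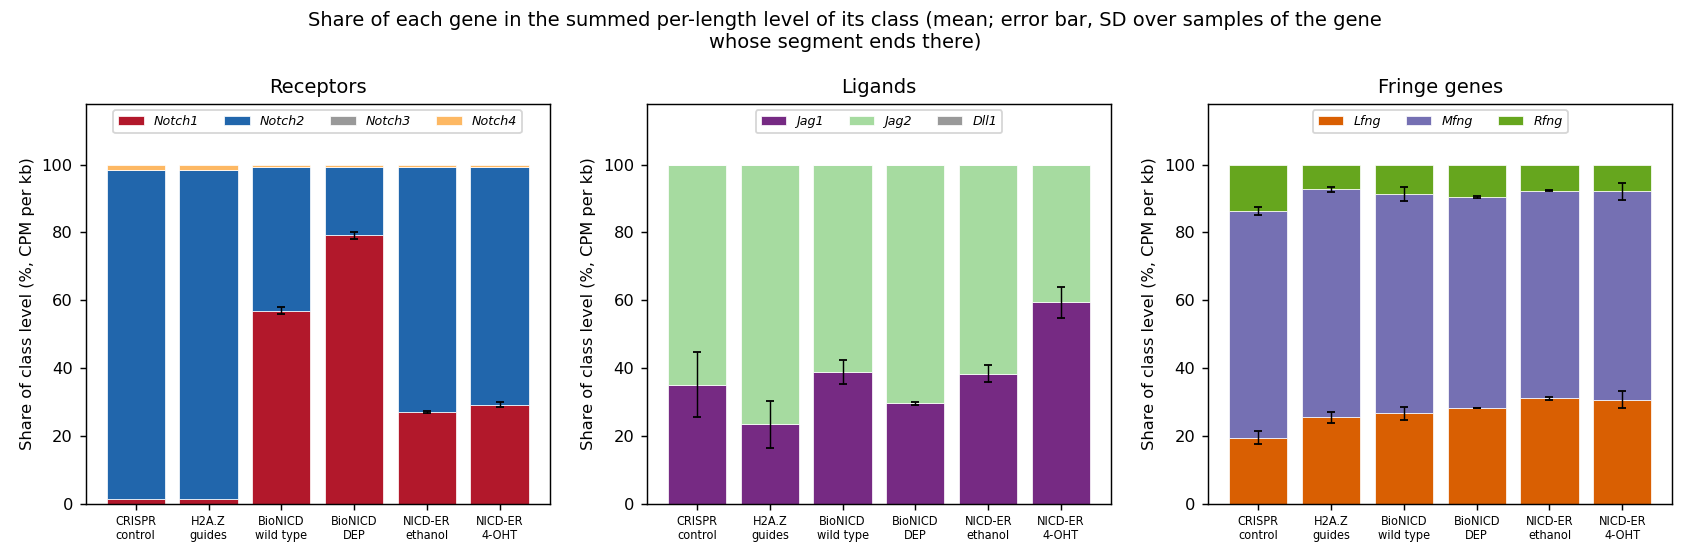
Share of each gene in the summed per-length level (CPM per kb) of its class, as the mean over the samples of a group, with the SD of the gene whose segment ends at the bar (none drawn for the smallest segments or near the top). Notch2 holds 97.1% of the receptor level in the control. Notch1 holds 79.1% with the DEP mutant, where its reads may come from the NICD transgene and are not a measure of the endogenous receptor.

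Notch1 (mm9 chromosome 2, 26313422 to 26359342, minus strand, 34 exons) encodes the receptor from which NICD is named. Control samples held 0.914, 1.95 and 2.75 CPM (lowest, median and highest of 6) and guide samples 1.77, 2.83 and 3.38 CPM. With wild-type BioNICD the samples stood at 289 and 273 CPM, and with the DEP mutant at 662 and 629 CPM. The NICD-ER samples held 99.9 and 95.9 CPM in ethanol and 93.5 and 89.2 CPM in 4-OHT. The 4 NICD groups thus lay far above both CRISPR groups, and the guide and control ranges overlapped. Reads of the NICD transgene and of the endogenous gene cannot be told apart in counts over the whole gene, so these values are not a measure of the endogenous receptor. Against the control, the fitted log2 fold change was 6.86 (SE 0.139) for wild-type BioNICD, 8.05 (SE 0.138) for the DEP mutant and 5.33 (SE 0.143) for NICD-ER in ethanol (adjusted p = 6.16e-20, 2.1e-20 and 2.56e-17, edgeR quasi-likelihood test). These comparisons share the control samples. Folds of NICD lines against the control are relative to a fitted control level for set 1, and so can differ from ratios of group means. The set covariate behind that level is estimated from control and guide samples of both sets. Each NICD line and each CRISPR set was also processed in a folder of its own, which cannot be told apart from the line.

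The DEP mutant samples had more Notch1 reads than the wild-type samples, with a fitted value of -1.20 (log2, SE 0.038, adjusted p = 2.69e-18) for wild type against mutant. With 4-OHT Notch1 gave -0.09 (SE 0.041, adjusted p = 0.0807) and with the H2A.Z guides 0.43 (SE 0.195, adjusted p = 0.0651), which both missed the threshold by edgeR. The 4-OHT value passed with a replicate block (-0.09, adjusted p = 0.0202), with upper quartile scaling (-0.12, adjusted p = 0.0223) and without ethanol replicate 2 (-0.12, adjusted p = 0.0452). The guide value was 0.14 in set 1 alone and 0.60 in set 2 alone, where it passed (adjusted p = 0.0299). Esr1, the estrogen receptor gene, gives a check of the fusion and was chosen after its values were seen. It held 690, 690, 738 and 690 counts in the NICD-ER samples and 6 counts in all over the other 16 samples. The Notch1 reads per Esr1 read were 4.50, 4.50 and 4.52 in ethanol replicates 1 and 2 and 4-OHT replicate 1, and 5.35 in 4-OHT replicate 2.

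Notch2 (chromosome 3, 97817461 to 97954290, plus strand, 34 exons), the main receptor transcript of the CRISPR samples, changed in several comparisons by small amounts. Control samples held 163, 174 and 183.5 CPM (lowest, median and highest) and guide samples 181, 229 and 244 CPM. Wild-type BioNICD samples held 232.3 and 231.6 CPM and DEP mutant samples 181 and 185 CPM. NICD-ER samples held 294 and 288 CPM in ethanol and 242 and 244 CPM in 4-OHT, so the 2 groups did not overlap. Notch2 rose with the guides (log2 fold change 0.32, SE 0.056, adjusted p = 9.78e-05, edgeR quasi-likelihood test). The rise was 0.11 in set 1 alone (adjusted p = 0.48) and 0.44 in set 2 alone (adjusted p = 1.27e-09). The difference between the sets was called, at 0.32 (SE 0.083, adjusted p = 0.0181), a call lost without control replicate 1 (0.27). Leaving out guide replicate 1 gave 0.37, and leaving out both of these samples, which hold fibroblast reads, gave 0.33. Each of these fits leaves 1 sample in a group of set 1. With all samples the test of the set difference called 15.7% of all genes, 8.19% higher and 7.49% lower in set 2. Notch2 was the only 1 of the 8 genes that it called.

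Notch2 fell by 0.25 on the log2 scale with 4-OHT (SE 0.032, adjusted p = 1.41e-06) and was higher with wild-type BioNICD than with the DEP mutant (0.33, SE 0.034, adjusted p = 9.38e-09). The effects therefore had opposite signs, and their difference was 0.59 (SE 0.047, adjusted p = 4.51e-10, edgeR). Against the control Notch2 rose in wild-type BioNICD by 0.52 (adjusted p = 3.98e-06) and in NICD-ER cells in ethanol by 0.85 (adjusted p = 5.9e-09). For the DEP mutant it gave 0.18 (adjusted p = 0.066) and missed the threshold. It passed under upper quartile scaling and without control replicate 1 or 2. Over all alternatives it ran from 0.065 to 0.25, the wild-type value from 0.41 to 0.59 and the ethanol value from 0.73 to 0.92. The set term behind these folds assumes the same set shift in control and guides. For Notch2 the means of sets 1 and 2 were 174.1 and 174.5 CPM in the control, but 188 and 236 CPM with the guides. These folds are therefore uncertain.

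Notch4 (chromosome 17, 34701240 to 34725488, plus strand, 30 exons), a receptor known mainly from blood vessels, was low throughout. The control held 1.23, 1.77 and 2.49 CPM (lowest, median and highest) and the guides 1.53, 2.09 and 3.15 CPM. The DEP mutant had the highest group mean, 3.26 CPM, with samples at 2.67 and 3.86 CPM. The highest guide sample lay between these 2, and wild-type BioNICD samples held 1.72 and 2.29 CPM. Notch4 was lower with the wild type than with the mutant (log2 fold change -0.79, SE 0.218, adjusted p = 0.00304, edgeR quasi-likelihood test), a call lost without wild-type replicate 1 (-0.53, adjusted p = 0.091) or mutant replicate 2 (-0.48, adjusted p = 0.164). Guides gave 0.23 (SE 0.199, adjusted p = 0.334) and 4-OHT gave -0.18 (SE 0.227, adjusted p = 0.597). The DEP mutant also stood above the control by 0.84 (adjusted p = 0.0215), which was lost without control replicate 1 or 2 or without mutant replicate 2. Notch3 (chromosome 17, 32257838 to 32303797, minus strand), a receptor known from smooth muscle, had 11 counts in all 20 samples and at most 4 in any sample.

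Jag1 (chromosome 2, 136907187 to 136942256, minus strand, 26 exons), a Jagged ligand, was the member that moved most with 4-OHT. NICD-ER samples held 3.45 and 3.74 CPM in ethanol and 7.25 and 7.58 CPM in 4-OHT. The 2 groups were well apart, and no other group reached the 4-OHT level. Jag1 rose with 4-OHT by 1.05 on the log2 scale (SE 0.129, adjusted p = 6.11e-07, edgeR quasi-likelihood test). Wild-type BioNICD samples held 3.81 and 3.13 CPM and DEP mutant samples 2.20 and 2.30 CPM. Jag1 was thus higher with the wild type, by 0.65 (SE 0.183, adjusted p = 0.00364), a call lost without wild-type replicate 1 (0.47, adjusted p = 0.0834). The difference between the BioNICD and NICD-ER effects, -0.41 (SE 0.231, adjusted p = 0.15), missed the threshold.

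In the CRISPR samples Jag1 was low, with 8 to 35 counts per control sample. Control samples held 0.760, 1.56 and 2.46 CPM (lowest, median and highest) and guide samples 0.890, 1.11 and 1.57 CPM. The ranges overlapped, and the control means differed between sets, at 0.945 CPM in set 1 and 2.00 CPM in set 2. Jag1 fell by 0.51 on the log2 scale with the guides (SE 0.215, adjusted p = 0.0493), but 16 of 24 alternatives took it out of the calls, and in set 1 alone it gave 0.08 (adjusted p = 0.924). Without control replicate 1 and guide replicate 1 it gave -0.57 (adjusted p = 0.0397). Against the control Jag1 was higher in wild-type BioNICD (1.58, adjusted p = 8.44e-06), the DEP mutant (0.93, adjusted p = 0.0123) and NICD-ER in ethanol (1.60, adjusted p = 1.11e-05). The mutant's call was lost without the set covariate (0.41, adjusted p = 0.288), without control replicate 2 and without mutant replicate 2.

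Jag2 (chromosome 12, 114146801 to 114167706, minus strand, 26 exons), the other Jagged ligand, held 1.52, 2.20 and 3.11 CPM in the control (lowest, median and highest) and 2.17, 2.68 and 4.00 CPM with the guides. The 2 ranges overlapped. Jag2 rose with the guides by 0.40 (SE 0.165, adjusted p = 0.0446, edgeR quasi-likelihood test), and 12 of 24 alternatives lost the call, each set alone among them (0.69 in set 1 and 0.26 in set 2). The NICD lines held 3.36 to 4.41 CPM. Jag2 missed the threshold with 4-OHT (-0.18, SE 0.143, adjusted p = 0.37) and between the BioNICD forms (0.01, SE 0.162, adjusted p = 0.952). Against the control it rose by 0.60 in wild-type BioNICD (adjusted p = 0.00825), 0.58 in the DEP mutant (adjusted p = 0.028) and 0.69 in NICD-ER in ethanol (adjusted p = 0.00397). The wild-type call was lost without control replicate 2 or wild-type replicate 1, and the mutant call without control replicate 2 or either mutant sample. Dll1 (chromosome 17, 15504318 to 15512787, minus strand), a Delta-like ligand, had 0 counts in all 20 samples, which allows a level of up to 0.00723 CPM (3 counts of 414832732).

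Lfng (chromosome 5, 141083295 to 141091499, plus strand, 8 exons) encodes Lunatic fringe, which T cell progenitors express in the thymus. Control samples held 13.4, 15.96 and 17.3 CPM (lowest, median and highest) and guide samples 23.3, 29.3 and 30.6 CPM. All 6 guide samples lay above all 6 controls. BioNICD samples held 31.4 and 27.7 CPM in the wild type and 30.4 and 30.9 CPM in the DEP mutant, and NICD-ER samples 43.7 and 42.1 CPM in ethanol and 32.3 and 35.2 CPM in 4-OHT. Lfng was lowest in the control and highest in NICD-ER cells in ethanol.

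Lfng rose with the guides by 0.85 on the log2 scale (SE 0.056, adjusted p = 1.85e-09, edgeR quasi-likelihood test). The rise was 0.88 in set 1 alone and 0.84 in set 2 alone. The median of the 682 tested genes on chromosome 5 was -0.33 in this comparison. Lfng fell by 0.34 with 4-OHT (SE 0.062, adjusted p = 0.000137) and gave -0.05 (SE 0.071, adjusted p = 0.579) for the wild type against the DEP mutant. The difference of the BioNICD and NICD-ER effects was 0.29 (SE 0.094, adjusted p = 0.013), and it was lost without wild-type replicate 1 (0.19, adjusted p = 0.147) or 4-OHT replicate 1 (0.23, adjusted p = 0.079). Against the control Lfng rose by 1.13 in wild-type BioNICD, 1.17 in the DEP mutant and 1.66 in NICD-ER in ethanol (adjusted p = 6.07e-11, 5.17e-10 and 2e-13).

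The bases just before the start of Lfng, which fell with 4-OHT, and of Jag1, which rose, are shown. The 250 bases lie at chr5:140607091-140607340 on the plus strand and chr2:137116521-137116770 on the minus strand (GRCm38.p6, RefSeq windows), printed 5′ to 3′ in the direction of the gene. Capitals mark matches, on either strand, to TGGGAA, a core of the RBPJ motif, and to the E-box CACGTG, whose match overlaps one of the RBPJ matches in Lfng.
Lfng: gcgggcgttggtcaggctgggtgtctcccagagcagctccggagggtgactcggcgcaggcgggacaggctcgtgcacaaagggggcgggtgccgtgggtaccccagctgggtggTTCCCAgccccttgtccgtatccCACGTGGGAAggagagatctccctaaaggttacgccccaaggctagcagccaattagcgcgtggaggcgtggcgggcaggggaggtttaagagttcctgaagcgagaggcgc
Jag1: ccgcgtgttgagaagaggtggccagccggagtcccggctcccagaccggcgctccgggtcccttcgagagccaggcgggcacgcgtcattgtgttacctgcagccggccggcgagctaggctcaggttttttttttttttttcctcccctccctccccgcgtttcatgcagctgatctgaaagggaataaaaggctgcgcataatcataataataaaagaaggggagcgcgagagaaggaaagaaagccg
Lfng has a match of TGGGAA in the direction of the gene and another on the opposite strand, and Jag1 has none. Of 32851 promoters of the same 250 bases, 21.6% hold TGGGAA, 5.42% hold the longer form GTGGGAA and 6.02% hold CACGTG. Of the 9 genes with a window, Lfng alone held any of these motifs, while Notch2 and Rfng, which also fell with 4-OHT, held none. The motifs and the genes shown were chosen after matches were seen. A match describes letters only, and their absence says nothing about binding elsewhere.

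Mfng (chromosome 15, 78586313 to 78603875, minus strand, 8 exons) encodes Manic fringe and was the most abundant Fringe gene in every group, at 61.3% to 67.3% of the class level per length. Control samples held 38.9, 42.8 and 47.0 CPM (lowest, median and highest) and guide samples 53.0, 60.3 and 63.4 CPM. All 6 guide samples lay above all 6 controls, as for Lfng. Mfng rose with the guides by 0.47 (SE 0.053, adjusted p = 1.24e-06, edgeR quasi-likelihood test). Set 1 alone gave 0.52 and set 2 alone 0.45. NICD-ER samples held 68.4 and 67.5 CPM in ethanol and 56.8 and 52.0 CPM in 4-OHT, a fall of 0.31 on the log2 scale (SE 0.049, adjusted p = 2e-05). BioNICD samples held 56.9 and 58.3 CPM in the wild type and 53.3 and 54.7 CPM in the DEP mutant, and the difference of 0.08 (SE 0.054, adjusted p = 0.194) missed the threshold. The BioNICD effect exceeded the NICD-ER effect by 0.40 (SE 0.073, adjusted p = 8.82e-05). Against the control Mfng rose by 0.48 in wild-type BioNICD, 0.39 in the DEP mutant and 0.72 in NICD-ER in ethanol (adjusted p = 5.97e-06, 0.000251 and 3.35e-08).

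Rfng (chromosome 11, 120642059 to 120645518, minus strand, 8 exons) encodes Radical fringe and went the other way from its relatives with the guides. Control samples held 8.36, 9.87 and 12.5 CPM (lowest, median and highest) and guide samples 6.37, 7.25 and 9.44 CPM, with overlapping ranges. Rfng fell by 0.44 on the log2 scale (SE 0.092, adjusted p = 0.000504, edgeR quasi-likelihood test). Set 1 alone gave -0.47 (adjusted p = 0.112) and set 2 alone -0.42. Its share of the Fringe level per length went from 13.6% ± 2.28 to 7.28% ± 1.03, and that of Lfng from 19.5% ± 1.95 to 25.4% ± 1.67. With 4-OHT Rfng went from 9.73 and 9.97 CPM to 8.12 and 7.87 CPM (-0.29, SE 0.094, adjusted p = 0.0169). That call was lost with DESeq2 (adjusted p = 0.0858) and without either ethanol sample or 4-OHT replicate 2. BioNICD forms gave -0.13 (SE 0.104, adjusted p = 0.286). Against the control Rfng was lower in wild-type BioNICD by a log2 fold change of -0.38 (adjusted p = 0.00477), which was lost without the set covariate (-0.18, adjusted p = 0.276) and without the 2 samples with fibroblast reads (-0.24, adjusted p = 0.103).

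**Figure D3:**
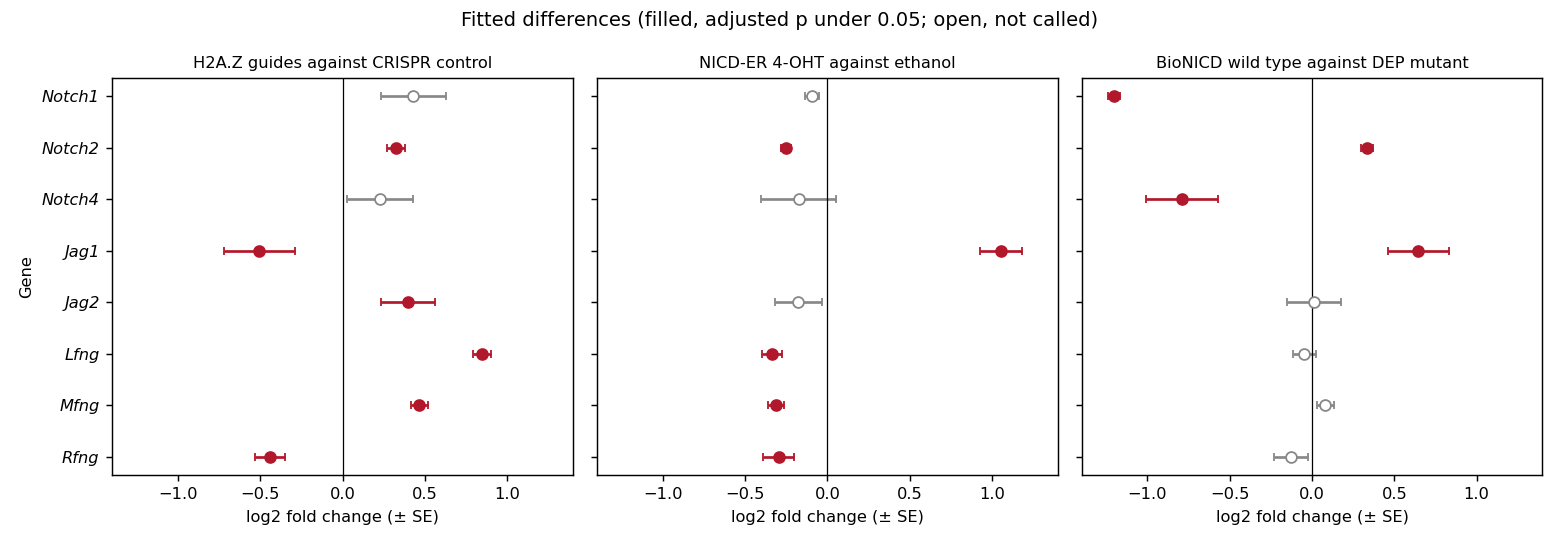
Fitted log2 fold change (horizontal axis, with its SE) of the 8 tested genes in the 3 main comparisons, filled where the adjusted p was under 0.05. Lfng and Mfng are right of 0 with the guides and left of 0 with 4-OHT, and Jag1 is the only gene right of 0 with 4-OHT.

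With the H2A.Z guides 4 of the 8 tested genes rose (Notch2, Jag2, Lfng and Mfng) and 2 fell (Jag1 and Rfng), by edgeR. This test called 64.5% of all 10662 genes, 31.8% higher and 32.7% lower, so a count of 6 of 8 is near the background. The median log2 fold change was 0.36 over the 8 genes and -0.01 over all genes. Ranges of guide and control samples did not overlap for 2 of the 8, Lfng and Mfng, against 33.7% of all genes. The 6 calls became 2, Lfng and Mfng, in set 1 alone. There were 6 calls without the 2 samples with fibroblast reads and 5 without the 3 samples high in Rn45s, where Jag1 was lost (-0.49, adjusted p = 0.147).

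With 4-OHT 1 gene rose (Jag1) and 4 fell (Notch2, Lfng, Mfng and Rfng) of 8 tested. The test called 36.2% of all 12499 genes, 19% higher and 17.2% lower. The median over the 8 genes was -0.21 and over all genes -0.00045. The 2 groups did not overlap for 7 of the 8, against 66.4% of all genes. Without ethanol replicate 1, the sample low in Lars2, 4 of the 5 calls stood and Rfng was lost (-0.32, adjusted p = 0.051). Between the BioNICD forms 2 genes were higher in the wild type (Notch2 and Jag1) and 2 lower (Notch1 and Notch4), where 65.6% of all genes were called, 32% higher and 33.6% lower. Their ranges did not overlap for 7 of the 8 genes, against 80.7% of all genes. The difference of these effects was called for 4 of 8 genes (Notch1, Notch2, Lfng and Mfng), against 51.5% of all genes, 25.1% higher and 26.4% lower. Notch1 reads in all these NICD samples may come from the transgene, so its place in these counts may not reflect the endogenous gene.

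Against the control 7 of the 8 genes were called in wild-type BioNICD, 6 higher and Rfng lower, where 62.1% of all genes were (32.2% higher, 30% lower). The DEP mutant had 6 of 8 higher, against 41.3% of all genes called (20.7% higher, 20.6% lower). NICD-ER in ethanol had 6 of 8 higher, against 56.2% (29.4% higher, 26.9% lower). Lfng, Mfng, Jag1, Jag2 and Notch1, whose reads may come from the transgene, were called higher in all 3 lines. The share of all genes called higher in all 3 was not counted, so this overlap has no background beside it. These 3 comparisons share the control samples. The mutant count fell to 3 without mutant replicate 2, and to 4 without control replicate 2.

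**Figure D4:**
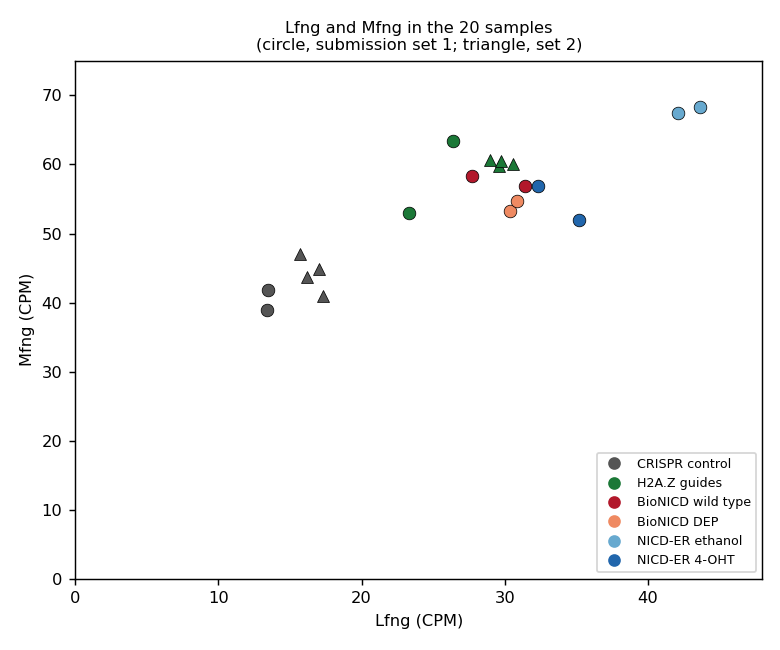
Lfng (horizontal axis) and Mfng (vertical axis) in CPM in the 20 samples, coloured by group. The 6 control samples lie lowest in both, at up to 17.3 and 47.0 CPM, and the 2 ethanol samples highest.

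Over the 20 samples, Lfng and Mfng had a Pearson r of 0.90 of log2 levels, Notch2 and Lfng 0.84, and Notch2 and Mfng 0.82. The samples share groups and lines, so these are descriptions. Of the 5 neighbouring pairs in each gene's order of group means, Notch1 and Jag1 had 4 called, Lfng 3, Notch2 and Mfng 2, Jag2 1, and Notch4 and Rfng 0. That makes 16 of 40 in the 20-sample fit, which called 27% of such neighbouring pairs over all 11988 genes, each gene in its own order. Of the 16, 4 were of Notch1, whose reads in the NICD groups may come from the transgene. In that fit Notch1 also passed for guides against control (0.43, adjusted p = 0.0266). Jag1 ran from 4-OHT (7.42 CPM) through NICD-ER in ethanol (3.59 CPM), wild-type BioNICD (3.47 CPM), the DEP mutant (2.25 CPM) and the control (1.65 CPM) to the guides (1.17 CPM), and only ethanol and wild-type BioNICD did not differ beyond the test. Lfng ran from ethanol (42.9 CPM) through 4-OHT (33.7 CPM), the DEP mutant (30.6 CPM), wild-type BioNICD (29.6 CPM) and the guides (28.1 CPM) to the control (15.5 CPM). In that order 4-OHT, the DEP mutant and wild-type BioNICD did not differ from their neighbours among themselves.

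The genes most like each member over the 20 samples (Pearson r of log2 levels, n = 20) were Padi2 (0.96) and Inpp4b (0.95) for Lfng. For Mfng they were Podnl1 (0.94) and Maml3 (0.93), for Jag1 Ski (0.95) and Dennd4c (0.93), and for Notch1 Lgalsl (0.96) and Sult5a1 (0.95). The Notch1 levels include reads that may come from the transgene. Notch2 was nearest to Tg (0.92) and Mon1b (0.91), Jag2 to Gfod1 (0.89) and Pgam2 (0.86), Rfng to Ly9 (0.88) and Usp30 (0.87), and Notch4 to Rps7 and Rnf220 (both 0.78). Notch4 had the lowest likeness of the 8 genes to any other gene.

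Genes that mature, activate or degrade the receptors were read from a list of 29. With the guides 10 of 21 tested rose and 5 fell, with a median log2 fold change of 0.11 over the list. Fbxw7, the ubiquitin ligase that degrades NICD, rose from 90.7 ± 1.96 to 168 ± 6.25 CPM (0.88). Eogt, an enzyme that adds sugars to the receptors, rose by 1.39 and Psen2, a gamma-secretase subunit, by 0.82, while Mib2, a ligand ubiquitin ligase, fell from 122 ± 6.35 to 64.6 ± 10.9 CPM (-0.93). With 4-OHT 8 of 22 rose and 4 fell (median 0.08). Furin, the protease that cuts the receptor precursor, rose from 116 ± 1.14 to 345 ± 4.6 CPM (1.57), and B4galt1, which can extend Fringe-made sugars, rose by 0.46. Xxylt1 fell by 0.50 and Aph1b, another gamma-secretase subunit, rose by 0.46. Wild-type BioNICD had 11 of 22 higher than the DEP mutant and 4 lower (median 0.17), with Furin at 638 ± 3.89 against 72.7 ± 5.07 CPM (3.13), Eogt 1.48, the ubiquitin ligase Itch 0.91 and Psen2 0.65. The shares of all genes called in these 3 comparisons were 64.5%, 36.2% and 65.6%.

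Known targets of Notch were read from a list of 17, of which 12 passed the filter in the NICD samples and 7 in the CRISPR samples. A target near 0 elsewhere could pass through the groups with active NICD alone. Nrarp, for example, stood at 0.0946 CPM in ethanol and 3.76 CPM in 4-OHT. The counts and medians of the NICD comparisons are thus partly set by the filter. With 4-OHT 8 of 12 tested rose and 3 fell (median 1.34). Hey1, a repressor downstream of Notch, rose from 0.502 ± 0.163 to 45.1 ± 3.77 CPM (6.48) and Trib2, a pseudokinase, rose from 7.17 ± 0.0284 to 47.5 ± 0.869 CPM (2.73). Wild-type BioNICD had 8 of 12 above the DEP mutant and 4 below (median 2.65). Hey1 stood at 433 ± 1.68 against 0.471 ± 0.331 CPM (9.74), and Dtx1, an E3 ligase of the pathway, at 1624 ± 19.4 against 1.72 ± 0.163 CPM (9.86). With the guides 6 of 7 tested rose and 1 fell (median 1.09), Hes1 by 2.29 and Bcl2, the survival gene, by 1.32. The guide effect on these targets differed between the submission sets, with 4 of the 7 called lower in set 2 and 0 higher (median difference -0.53), against 7.49% and 8.19% of all genes. The counts for the 3 main comparisons have the same background shares as above.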

How the data were processed

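RNA-seq counts of 20 samples in 6 groups were used, grouped by title. Per the labels' protocols, libraries came from a stranded total RNA kit after removal of ribosomal RNA. Tools listed in the submitters' processing notes are STAR, Trimmomatic, FastQC, DESeq2 and featureCounts, with the build mm9. The authors ran featureCounts 1.5.0 on a mm9 annotation from UCSC and summed exons by gene, with no strand option, per the file headers. Reads from antisense transcripts cannot be told apart from those of a gene. The deposited values are raw counts of 24391 genes per sample, with no normalization. No annotated exon of another gene overlaps an exon of the 10 genes.

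Levels (CPM) are counts scaled to library size with TMM factors over all 20 samples. Tests used edgeR 4.0.16 (R 4.3.3) and its quasi-likelihood F test (TMM, filterByExpr, Benjamini-Hochberg adjustment over all genes tested, called at an adjusted p under 0.05). The guide comparison used 12 samples and a term for submission set (10662 genes). The NICD comparisons used 8 samples with a coefficient per group (12499 genes). Comparisons of NICD lines with the control, and of neighbouring groups, used 20 samples and the same term (11988 genes). A set-by-guide term tested whether the guide effect differed between sets. Each SE was derived as |log2 fold change| over the root of F. The procedure was tested on simulated data. Alternatives were RLE and upper quartile scaling, no filter, DESeq2 1.42.0, leaving out Rn45s or single samples, a replicate block and other choices of samples. Without CRISPR control replicate 1 and H2A.Z guides replicate 1 was an alternative chosen after seeing the data.

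Replicates within a group differed by a mean chi-square per gene of at least 2.66 over genes with at least 20 counts. Sampling noise alone gives about 1, so all were kept as separate samples. They were not equally far apart. Guide replicates 3 and 4 differed by 2.75 and 5 and 6 by 3.23, against 39.0 to 53.6 across these pairs. The medians were 0.768 and 0.782 within the pairs and 1.33 to 1.92 across. Control replicates 3 to 5 differed by 2.99 to 4.43, and replicate 6 from them by 34 to 37.1. Control replicate 6 and guide replicates 5 and 6 are the samples high in Rn45s. Guide replicates 1 and 2 differed by 30.2 (median 4.86) and control replicates 1 and 2 by 5.59. The CRISPR samples of either set may therefore not be equally independent, which the p-values do not take into account. The 10 genes and the gene lists were chosen with earlier results of these data known. Named genes are the 10 members, up to 4 genes per list and comparison with the largest absolute log2 fold change among those called, and per member the 2 genes with the highest Pearson correlation of log2(CPM + 0.5) over 20 samples. Promoter windows come from RefSeq (GRCm38.p6), matched by symbol for 9 of the 10 genes, and were searched on both strands. Counting floors cover counting error only, as PCR copies were not separated by molecular identifiers.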

Additional observations from a re-analysis of the deposited data

Results flagged for a closer look

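Notch3 was flagged in the control and guide groups because 1 sample stood apart from the other 5, at 0.0733 CPM in control replicate 5 and 0.0641 CPM in guide replicate 3, each from 1 count. Mfng was flagged in guide replicate 2, the lowest of 6, at 53.0 CPM, and Rfng in guide replicate 1, the highest of 6, at 9.44 CPM. Chance flags about 1 in 20 groups of normally distributed values, and 18 groups were tested. That rate does not hold for Notch3, where any single read beside 5 samples at 0 is flagged. The groups pool both submission sets. Effects that differed between the BioNICD and NICD-ER contrasts were those of Notch1 (-1.11), Notch2 (0.59), Mfng (0.40) and Lfng (0.29 on the log2 scale), by edgeR. Notch1 reads in those samples may come from the transgene. The effect of the guides on Notch2 differed between submission sets by 0.32.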

How the results depend on the processing

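Of the single-gene values under alternatives, 1287 kept direction and side of the threshold, 52 lost a call, 16 gained one and 21 changed sign. Calls of the guide comparison numbered 6, but 2 in set 1 alone. Leaving out single samples gave 4 to 6 calls with the guides, 4 to 5 with 4-OHT, 2 to 4 between BioNICD forms (2 without wild-type replicate 1), 3 to 5 for the difference of effects, and 0 to 2 for the set difference (0 without control replicate 1, 2 without guide replicate 2). It gave 6 to 7 calls for wild-type BioNICD against the control, 3 to 7 for the DEP mutant, 6 to 7 for ethanol and 13 to 17 for neighbouring groups. The cause was not tested. In the CRISPR samples depth was low for Jag1, at 8 to 35 counts per sample.

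All changes of sign were in values that were not called in the alternative. Jag1 with the guides gave 0.076 in set 1 alone. For the set difference, leaving out single samples ranged from -0.13 to 0.031 for Lfng (0.023 without the 2 samples with fibroblast reads), from -0.21 to 0.039 for Mfng and from -0.12 to 0.21 for Rfng. Between BioNICD forms Jag2 gave -0.025 with upper quartile scaling and -0.0039 to 0.028 over single samples, and Lfng -0.15 to 0.025. Against the control Notch4 ranged from -0.13 to 0.33 in wild-type BioNICD and from -0.23 to 0.16 in ethanol, with 0.018 under upper quartile scaling, 0.28 against set 1 controls only and 0.0064 without the 2 samples with fibroblast reads.

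Whether replicate numbers pair the samples was not settled. Same-numbered guide and control samples had correlations of deviations from -0.02 to 0.24, BioNICD pairs -0.01 and NICD-ER pairs 0.12. Of the 6 guide samples 4 correlated best with their own number. In the NICD groups and in CRISPR set 1, with 2 samples per group, the deviations of the replicates mirror each other. The best match there rests on a sign alone, and guide replicates 1 and 2 share the value 0.24. In set 2 guide replicates 5 and 6 correlated best with their own number and replicates 3 and 4 did not. The fibroblast reads were found in a control and a guide sample with the same number. A replicate block gave 5 calls with the guides (Jag1 and Jag2 lost, Notch1 gained), 6 with 4-OHT (Notch1 gained), 4 between BioNICD forms and 4 for the difference of effects. Under the block Jag2 between BioNICD forms gave -0.0070.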

Other observations

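In NICD-ER cells kept in ethanol, without the ligand, several Notch targets were already above the control. Of 11 tested, 9 were higher and 1 lower, where 56.2% of all genes were called by edgeR. A target could pass the filter through the wild-type BioNICD or NICD-ER samples alone, so the counts of targets here are partly set by the filter. Il2ra, a subunit of the interleukin-2 receptor, stood at 85.7 ± 2.97 CPM (SD, n = 2) against 0.105 ± 0.0653 CPM in the control (n = 6), Dtx1 at 28.2 ± 1.43 against 0.211 ± 0.150 CPM and Hes1 at 25.8 ± 1.98 against 1.49 ± 1.13 CPM. In the DEP mutant 7 of 11 were higher than the control and 0 lower (median log2 fold change 0.58), where 41.3% of all genes were called. Il2ra stood at 0.379 ± 0.136 CPM there, Dtx1 at 1.72 ± 0.163 CPM and Hes1 at 5.62 ± 0.366 CPM. Il2ra and Hey1 (0.471 ± 0.331 against 0.115 ± 0.111 CPM) were low in both the mutant and the control. The control means pool both submission sets, while the fit uses the control level for set 1, so fitted values can differ from ratios of these means. For Hes1 the fitted log2 fold change was 6.71 in ethanol and 4.51 in the DEP mutant. The line and its processing folder cannot be told apart here.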
